A study of Mus musculus with 18 samples.

Results

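A set of 10 genes that mark the epithelium of the choroid plexus was examined in newborn mouse brain and in 3 other tissues. The females carried a heterozygous or homozygous deletion of Xist. The genes were Ttr, Folr1, Kl, Clic6, Otx2, Aqp1, Enpp2, Slc4a5, Kcne2 and F5. They were chosen by symbol, 10 of the 46078 gene identifiers in each deposited table, and each symbol matched 1 identifier. All 10 are autosomal. RNA sequencing covered 18 female libraries. Brain, liver and spleen were taken on postnatal day 1, with 2 control and 2 mutant libraries per tissue, and primary tail-tip fibroblasts gave 3 control and 3 mutant libraries. By the labels, control females carried a heterozygous deletion of Xist, and mutant females carried the homozygous deletion, so no library came from a female with both Xist copies intact. The deposited tables head the control columns WT, and the labels were taken as the genotype. The labels name no strain, no driver of the deletion, no culture passage and no pooling of animals, and the series describes its replicates as biological.

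The choroid plexus is a fold of vessels and stroma in each brain ventricle, covered by a single sheet of epithelium that secretes cerebrospinal fluid. The epithelium moves ions, bicarbonate and water toward the ventricle, carries folate and thyroid hormone across, and releases proteins into the fluid. Separate plexuses lie in the lateral, middle and hindbrain ventricles. How much of each plexus was taken with the brain tissue was not measured here.

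RefSeq promoter windows on GRCm38.p6, reaching 250 bases before and 50 after a start site, matched 6 members with 10 windows: F5, Kl, Aqp1, Slc4a5, Otx2 and Kcne2. Folr1, Clic6 and Enpp2 had no entry in the table. The 250 bases before a start site are shown for Otx2 and Aqp1, a transcription factor of the epithelium and its water channel, because they are the members with an entry among the 5 with the highest control signal in brain. Neither stretch overlapped an annotated exon, and capitals mark a TATAAA match.
Otx2 chr14:48667645-48667894, minus strand: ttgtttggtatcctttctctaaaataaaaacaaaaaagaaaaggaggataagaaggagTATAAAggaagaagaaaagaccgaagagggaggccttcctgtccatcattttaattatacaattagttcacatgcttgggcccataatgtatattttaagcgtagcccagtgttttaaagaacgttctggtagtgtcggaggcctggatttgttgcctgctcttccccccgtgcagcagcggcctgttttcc
Aqp1 chr6:55336049-55336298, plus strand: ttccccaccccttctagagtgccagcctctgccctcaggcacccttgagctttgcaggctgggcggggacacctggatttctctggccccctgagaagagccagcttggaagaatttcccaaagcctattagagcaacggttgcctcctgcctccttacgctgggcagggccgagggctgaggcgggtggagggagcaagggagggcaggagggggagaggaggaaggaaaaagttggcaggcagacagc
The first holds TATAAA on the gene's own strand, starting 192 bases before the start site, and the second holds none of the motifs searched. TATAAA, read on both strands, was found in 2 of the 10 member windows (1 of Otx2 and 1 of Slc4a5) and in 13.6% of all 32851 windows of that length. TAATCC, the core bound by OTX2 and related homeodomain proteins, was found in 1 of the 10, another Otx2 window whose 250 bases before the start site lie wholly in annotated Otx2 exons, and in 7.06% of all windows. The forkhead core GTAAACA was found in 0 of the 10 and in 3.65% of all windows. These matches are letters in a window and were not tested as binding sites. No member window held more than 1 match, so none overlapped another.

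The genes lie at these positions of GRCm38: Ttr at 18:20665280-20674321 (plus strand), Folr1 at 7:101858331-101870788 (minus), Kl at 5:150952607-150993817 (plus), Clic6 at 16:92485736-92541243 (plus), Kcne2 at 16:92292389-92298129 (plus), Otx2 at 14:48657677-48673819 (minus), Aqp1 at 6:55336432-55348555 (plus), Slc4a5 at 6:83219828-83304945 (plus), Enpp2 at 15:54838901-54952892 (minus) and F5 at 1:164151838-164220277 (plus). Clic6 and Kcne2 lie near each other on chromosome 16.

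Each level is a signal, meaning the scaled read count that the authors deposited for a gene, in which 1 read was worth 0.0343 to 0.0751. Libraries held 12.4 M to 29.2 M reads in genes (15.3 M to 23.1 M in brain), and a count of 0 allowed up to 3 reads, a signal of 0.103 to 0.225, counting error only. Xist itself had a signal of 674 ± 12.1 (SD, n = 2) in control brain and 3.88 ± 0.374 (n = 2) in mutant brain, a called difference (limma, Benjamini-Hochberg adjusted p = 1.5e-08). Its mutant means were 217 against 662 in liver, 83.9 against 1163 in spleen and 8.94 against 103 in fibroblasts, lower in every mutant library, with adjusted p = 0.454, 0.136 and 1.00 by limma. The labels do not give which bases of Xist were deleted, so the reads left in mutants check the labels only in part. The neuronal tubulin gene Tubb3 ranged from 1948 to 2374 in brain, Alb ranged from 49071 to 84131 in liver, and the globin gene Hbb-bs ranged from 10088 to 19305 in spleen.

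Brain control 1 stood apart from the other 3 brain libraries in genes that mark brain regions. Genes of the cerebellum and hindbrain were low in it: of 14 tested of 15 listed, control 1 was the lowest library for 13. Of all genes tested in brain, 26.1% were lowest in control 1. Hoxb3, which patterns the hindbrain, had a signal of 0.492 in control 1 and 22.9 in control 2, with 12.5 and 19.5 in the mutants. Slc6a5, the glycine transporter of inhibitory hindbrain neurons, was at 2.13 and 25.2 in the controls and at 17.9 and 23.8 in the mutants. Hoxa3 and Hoxb5 had no read in control 1, and signals of 4.76 and 1.89 in control 2. Forebrain genes went the other way, and control 1 was the highest library for 12 of 12. The share of all genes that were highest in control 1 was not counted. Tbr1, a cortical neuron factor, had a signal of 119 in control 1 and 37.6 in control 2, with 61.2 and 51.4 in the mutants. The summed signal of the hindbrain list was 367 in control 1, 659 in control 2, 611 in mutant 1 and 577 in mutant 2, and that of the forebrain list was 1195, 587, 687 and 692. The fitted brain change of each choroid plexus gene is therefore given with and without brain control 1.

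**Figure D1:**
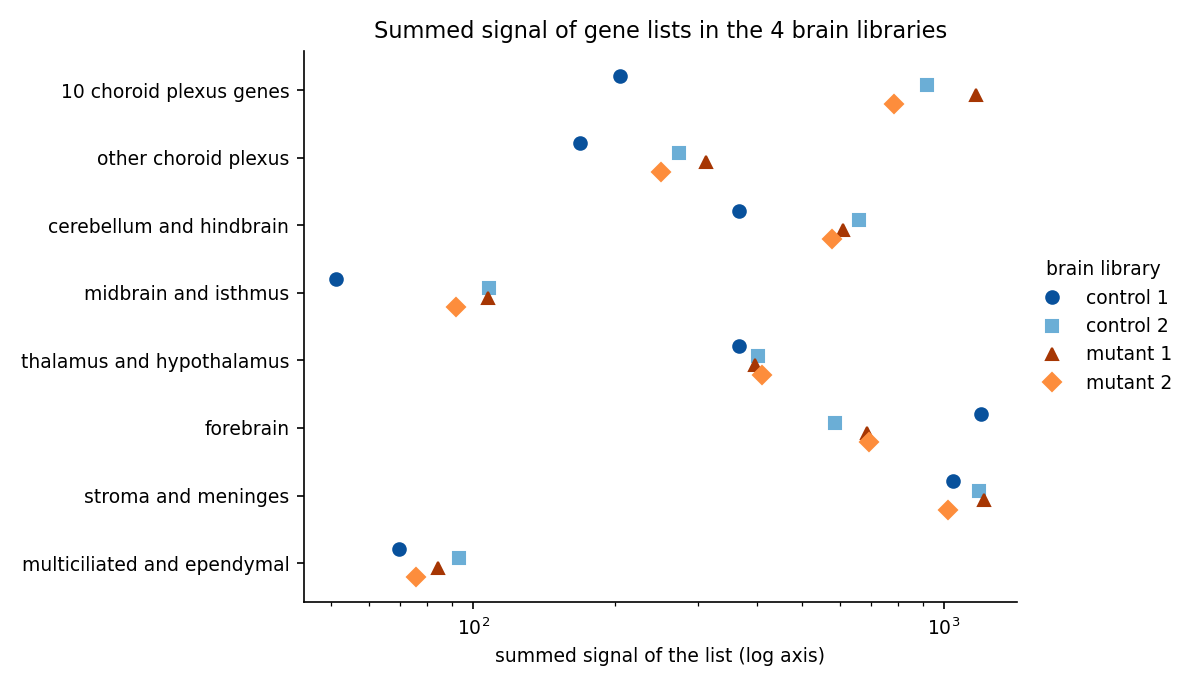
Summed signal (log axis) of 8 gene lists in the 4 brain libraries, 1 marker per library. Control 1 is the lowest library for the choroid plexus, hindbrain, midbrain, thalamus and hypothalamus, and multiciliated and ependymal lists. It is the highest for the forebrain list, and mutant 2 is the lowest for stroma and meninges. Of 10 thalamus and hypothalamus genes tested, 3 are lowest and 4 highest in control 1.

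In brain, no choroid plexus gene passed the test between mutants and controls, and the 10 genes varied more between the 2 control libraries than between the 2 mutants. All 10 were lowest in control 1, a position that 26.1% of the 16909 genes tested took. Leaving that library out therefore had to lower each fitted change. Mutant 1 was the highest library for 7 of the 10, against 24.4% of genes tested. Less RNA of these genes can come from fewer epithelial cells in the sample or from less RNA per cell, which cannot be told apart in bulk tissue.

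Among the proteins the epithelium releases, Ttr encodes transthyretin, which carries thyroxine and, with its partner, retinol. It had a signal of 132 in control 1, 760 in control 2, 987 in mutant 1 and 638 in mutant 2. Control 2 thus lay between the mutants, and the groups overlapped. The fitted change was 1.32 ± 0.63 (log2, SE; limma, adjusted p = 1.00). Without control 1 it was 0.06 ± 0.19. Enpp2 encodes autotaxin, a secreted enzyme that makes lysophosphatidic acid. Its signal was 44.5 and 83.1 in controls and 77.5 and 70.2 in mutants, with control 2 above both mutants. The change was 0.28 ± 0.24, and it was -0.17 ± 0.14 without control 1. Kl encodes klotho, a membrane co-receptor for FGF23 that is also shed into the fluid. It had 2.46 and 4.54 in controls and 4.07 and 4.10 in mutants, so control 2 was again the highest. The change was 0.25 ± 0.29, and -0.14 ± 0.29 without control 1.

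F5, which encodes coagulation factor V, was the only one of the 10 with both mutants above both controls, an order that 13.8% of genes tested took. Its signal was low throughout, 0.928 and 1.29 in controls and 2.71 and 2.18 in mutants, from 17, 30, 42 and 49 reads. The fitted change was 0.88 ± 0.28 (limma, adjusted p = 1.00). Without control 1 it was 0.72 ± 0.34, the largest change of the 10 in that fit.

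Among the carriers and channels, Slc4a5 encodes a sodium bicarbonate cotransporter of the epithelium. Its signal was 1.47 in control 1, 12.7 in control 2, 19.6 in mutant 1 and 12.5 in mutant 2. Control 2 was 8.63-fold above control 1 (95% counting interval 5.81 to 13.3), the widest control ratio of the 10. The fitted mutant change was 1.66 ± 0.70 (limma, adjusted p = 1.00), and 0.29 ± 0.26 without control 1. Folr1 encodes the folate receptor that carries folate through the epithelium into the fluid. It was at 1.37 and 8.19 in controls and at 11.1 and 5.84 in mutants, and the groups overlapped. Its change was 1.09 ± 0.61, and -0.02 ± 0.32 without control 1. Clic6, of the chloride intracellular channel family, was at 4.97 and 16.1 in controls and at 26.0 and 14.9 in mutants. Its change was 1.08 ± 0.46 (limma, adjusted p = 1.00), and 0.28 ± 0.27 without control 1.

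Kcne2, a small subunit that modifies potassium channels, was at 1.20 and 4.50 in controls and at 7.11 and 3.25 in mutants. Mutant 1 was 2.18-fold above mutant 2 (95% counting interval 1.61 to 2.98), the widest mutant ratio of the 10. The fitted change was 0.87 ± 0.50, and 0.10 ± 0.37 without control 1. Aqp1 is the water channel of the ventricular membrane, and red cells carry it too. It was at 6.77 and 12.2 in controls and at 19.8 and 12.2 in mutants. Its change was 0.74 ± 0.30 (limma, adjusted p = 1.00), and 0.34 ± 0.27 without control 1. The transcription factor Otx2, which the epithelium needs to form and to keep its gene expression, was at 9.39 and 17.8 in controls and at 16.6 and 18.2 in mutants. The 2 mutants and control 2 lay close together, and the change was 0.41 ± 0.27, or -0.03 ± 0.20 without control 1.

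**Figure D2:**
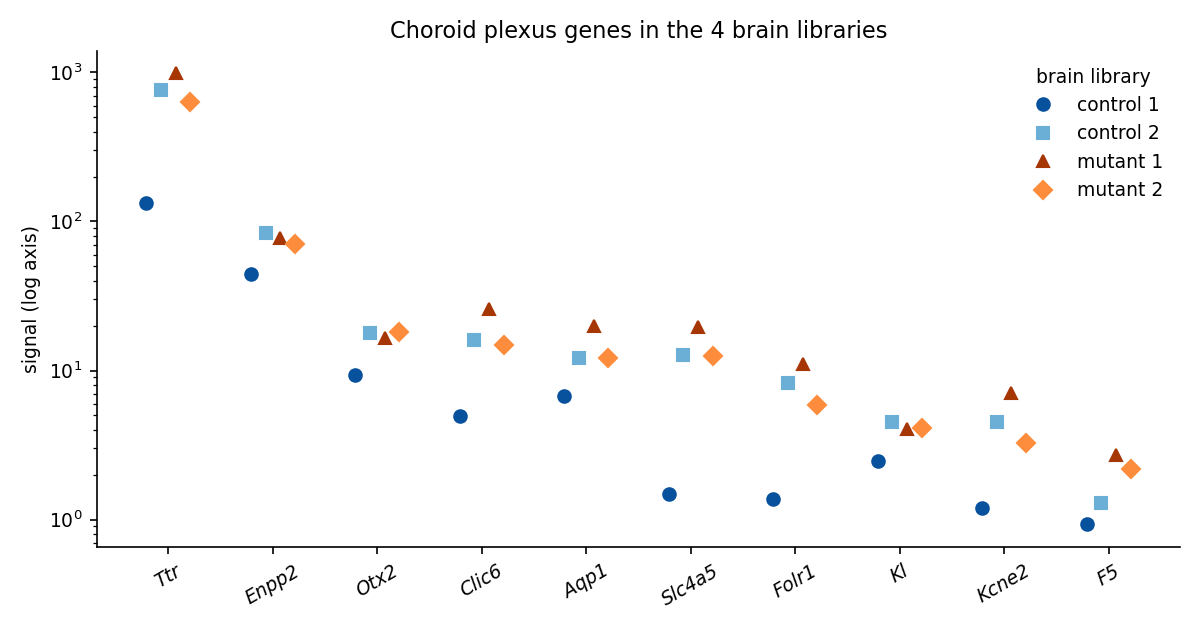
Signal (log axis) of the 10 choroid plexus genes in the 4 brain libraries, 1 marker per library, ordered by mean control signal. Control 1 is the lowest library for all 10 genes, and control 2 lies between or above the mutants for all but F5.

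By limma, 0 of the 10 were called between mutant and control brain at an adjusted p under 0.05, where 0.0237% of all genes tested were called. At an unadjusted p under 0.05 there were 4 (Slc4a5, Clic6, Aqp1 and F5), a level that 4.07% of all genes reached. edgeR's quasi-likelihood test on recovered reads called 0 with 2 at an unadjusted p under 0.05 (3.99% of all genes), and DESeq2 called 0 with 1 (2.47%). All 10 fitted changes were above 0, with a median of 0.88, where 46.1% of all genes were above 0 with a median of -0.01. Without control 1, 6 of 10 were above 0 against 47.8% of all genes, and the median was 0.08. limma then called 0 with 0 at an unadjusted p under 0.05, where 0.0355% of genes were called and 4.62% reached that unadjusted level. Without control 2, limma called 5 of the 10 higher in mutants, where 0.662% of genes were called. Those 5 were Ttr at 2.58 ± 0.19 (adjusted p = 3.38e-05), Slc4a5 at 3.03 ± 0.29, Clic6 at 1.88 ± 0.29, Folr1 at 2.20 ± 0.35 and Enpp2 at 0.72 ± 0.14. With a lone control, each of these fits takes its spread from the mutants, so the lone library is assumed to vary as they do.

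**Figure D3:**
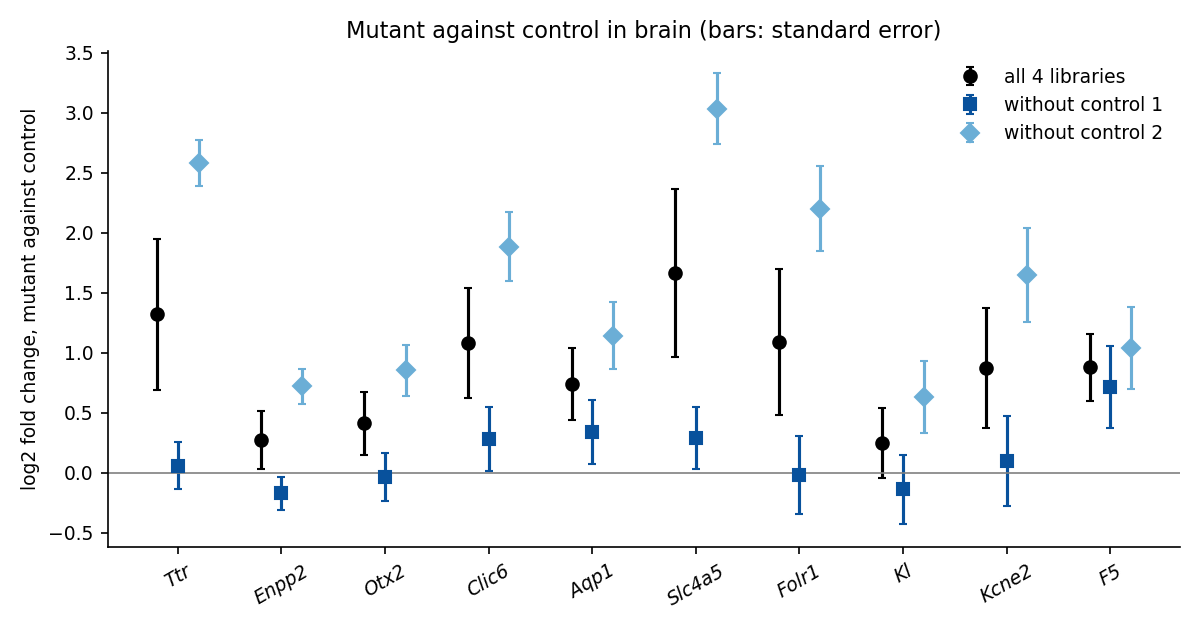
Fitted log2 change of each choroid plexus gene in mutant against control brain, with bars of 1 standard error, using all 4 libraries, without control 1 and without control 2. The values without control 1 lie between -0.17 and 0.72, and those without control 2 between 0.63 and 3.03.

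The 95% counting interval of control 2 over control 1 lay above 1 for 9 of the 10 genes, all but F5, and for 21.4% of all genes tested. It holds counting error alone, and not the spread between animals. Control 2 exceeded control 1 by at least 2-fold on the log2(signal + 0.5) scale for 5 of the 10 (Ttr, Folr1, Clic6, Slc4a5 and Kcne2), and 1.25% of genes tested did so. In the order of all genes by that difference, Slc4a5 stood highest of the 10, at the 99.9th percentile, 8 others stood between 97.4 (Kl) and 99.8, and F5 stood at 85.4. The median difference was 1.22 over the 10 genes and -0.01 over all genes. The counting interval of mutant 1 over mutant 2 lay above 1 for 7 of the 10 and for 17.4% of all genes, with a median difference of 0.63 against -0.02 over all genes. The intervals of the other 3 included 1. Mutant 1 over mutant 2 was 0.911-fold for Otx2 (0.776 to 1.07), 0.992-fold for Kl (0.709 to 1.38) and 1.24-fold for F5 (0.803 to 1.91). The control pair lay further apart than the mutant pair for all 10, and for 53.6% of all genes.

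**Figure D4:**
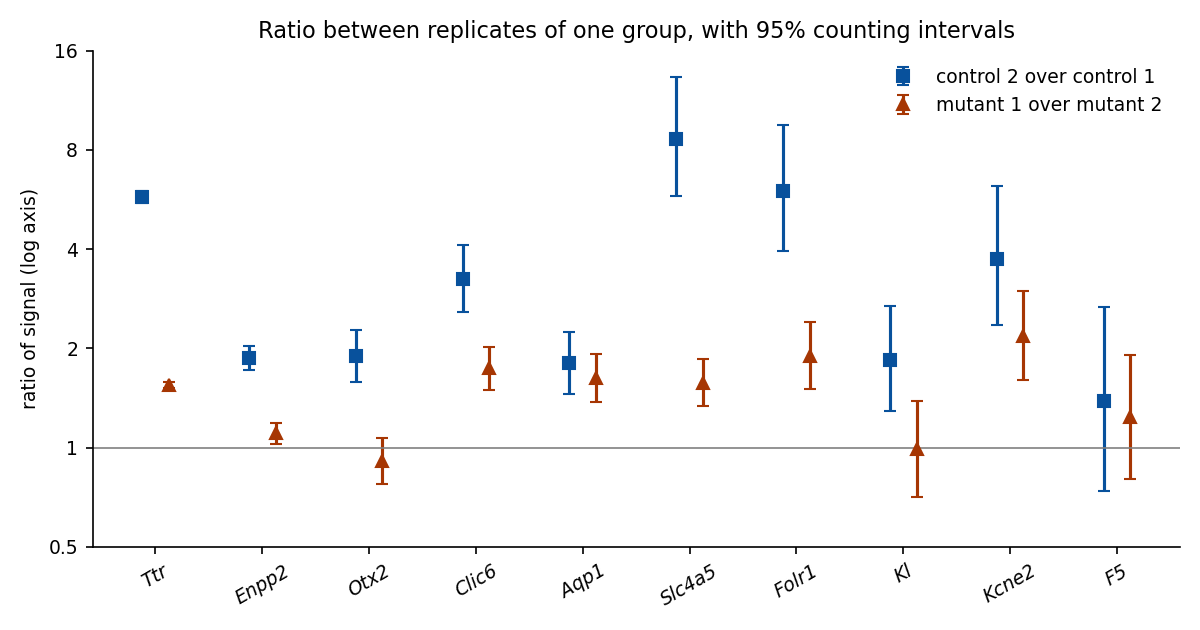
Ratio of signal between replicates of the same group in brain (log axis), control 2 over control 1 and mutant 1 over mutant 2, with 95% counting intervals. Control ratios range from 1.39 for F5 to 8.63 for Slc4a5, and mutant ratios from 0.911 for Otx2 to 2.18 for Kcne2.

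The genes kept different proportions to one another across the libraries. Per 100 units of Ttr signal, Folr1 stood at 1.03 and 1.08 in controls and 1.13 and 0.916 in mutants, so its highest and lowest values differed by 1.23-fold while Ttr itself spanned 132 to 987. Clic6, Slc4a5 and Kcne2 held their proportion to Ttr within 1.77-, 1.78- and 1.78-fold. Enpp2 did not: it stood at 33.7 per 100 units of Ttr in control 1 and at 10.9, 7.85 and 11.01 in control 2 and the mutants. Otx2 was at 7.11 in control 1 and at 1.68 to 2.86 elsewhere, Kl at 1.86 and 0.412 to 0.643, Aqp1 at 5.12 and 1.61 to 2.01, and F5 at 0.702 and 0.169 to 0.343. Control 1 thus held relatively more of these 5 than of Ttr. Clic6 and Kcne2 were also highest per 100 units of Ttr in control 1, at 3.76 and 0.909, by a smaller margin. Slc4a5 was lowest there, at 1.12. The 10 genes took 0.0201% of reads in genes in control 1, 0.0930% in control 2, 0.118% in mutant 1 and 0.0783% in mutant 2, and Ttr made up 64.4% to 84.2% of that. Compared per kilobase of exon, mean control signal in brain ran from Ttr at 376 through Enpp2 at 11.04, Aqp1 at 3.61, Otx2 at 3.22, Clic6 at 2.69, Folr1 at 2.08, Kcne2 at 1.61, Slc4a5 at 1.22 and Kl at 0.375 to F5 at 0.149. Of the neighbours in that order, Enpp2 and Aqp1 differed by more than the SD between the 2 controls of either gene, and so did Kl and F5. Every other neighbouring difference, that of Ttr and Enpp2 included, was smaller than the SD of at least 1 of the genes.

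Other genes of the choroid plexus epithelium were mostly lowest in control 1 too. Of 25 listed, 22 were tested in brain, 0 were called in either direction by limma and 3 had an unadjusted p under 0.05, which 4.07% of all genes had. Control 1 was the lowest library for 21 of the 22. Tmem72, a membrane protein marker of the epithelium, was at 1.15 and 9.77 in controls and at 14.7 and 8.65 in mutants. Mfrp, a frizzled-related membrane protein, was at 0.273 and 3.82 against 8.66 and 4.68. Cldn2, a pore-forming claudin of its tight junctions, was at 1.09 and 4.46 against 5.23 and 3.48. The 3 of the list with the highest signal, which are made in other cells too, differed less: Ace, angiotensin-converting enzyme, was at 40.1 and 58.0 against 52.8 and 50.6, Slc13a4, a sulfate transporter, at 23.7 and 26.4 against 37.1 and 26.3, and Htr2c, a serotonin receptor, at 18.7 and 32.5 against 27.4 and 29.4. The list's median change was 0.49, and it was 0.05 without control 1. Tmem72, Mfrp and Cldn2 were picked after their values were seen.

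Genes of the pathways that the members serve had no call in brain by limma in either direction. In fluid secretion, 0 of 15 tested passed and 1 had an unadjusted p under 0.05. In folate handling it was 0 of 8, with 0 at an unadjusted p under 0.05, and Slc19a1, the reduced folate carrier, stayed between 29.6 and 31.0. In klotho and FGF signalling it was 0 of 6, with 0 at an unadjusted p under 0.05. In lysophosphatidic acid signalling it was 0 of 7 and in coagulation 0 of 7, with 1 and 0 at an unadjusted p under 0.05. In retinoid and thyroid hormone handling 0 of 14 passed and 3 had an unadjusted p under 0.05, against the 4.07% of all genes. The median changes of these 6 lists lay between -0.05 and 0.15, and between -0.28 and 0.04 without control 1. Control 1 was the lowest library for 11 of 15 fluid secretion genes and 4 of 6 klotho and FGF genes. In the other lists it was 3 of 8 (folate), 4 of 14 (retinoid and thyroid hormone), 3 of 7 (lysophosphatidic acid) and 2 of 7 (coagulation). Of all genes tested, 26.1% were lowest in control 1.

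Markers of neighbouring cells and regions were summed per library. Multiciliated and ependymal genes, from the cells that line the ventricles, summed to 69.7 and 93.2 in controls and to 84.1 and 75.7 in mutants, with control 1 lowest for 8 of 13 tested. Foxj1, the factor that drives motile cilia, was at 21.3, 32.6, 25.5 and 25.2. Stroma and meninges summed to 1047 and 1186 against 1218 and 1019, with control 1 lowest for 6 of 14. Midbrain and isthmus genes summed to 51.2 and 108 against 107 and 91.8, with control 1 lowest for 6 of 9, and En2, a midbrain and cerebellar factor, was at 6.28 and 28.0 against 23.6 and 19.5. Red cell genes summed to 654 and 292 against 690 and 337, and so were high in control 1 and mutant 1. The part of red cells in the brain signal of Aqp1 was not tested. Retina and pigment epithelium genes, where Ttr and Otx2 are also active, summed to 40.9 and 27.4 against 24.2 and 25.3, so control 1 was the highest in the sum, but it was the highest library for 1 of the 4 genes tested and the lowest for 1. Alb, which marks hepatocytes, was at 5.79 and 3.52 against 5.23 and 2.85. Between control 1 and control 2, the midbrain and hindbrain markers moved with the choroid plexus genes and the forebrain markers moved the opposite way (median log2 difference 0.79, 2.64 and -0.84, against 1.22 for the 10 genes). The part of brain region in the result was not tested. Between the mutants, the summed hindbrain, midbrain and stroma signals were higher in mutant 1, and the summed forebrain signal was slightly lower. The median log2 difference, mutant 1 over mutant 2, was 0.03 for hindbrain, 0.23 for midbrain, 0.23 for stroma and -0.03 for forebrain. Hindbrain genes were mixed. Zic1 was at 340 in mutant 1 and 297 in mutant 2, but Hoxa5 was at 2.45 and 17.9. Hoxb3 was at 12.5 and 19.5, and Slc6a5 at 17.9 and 23.8.

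Across the 12847 genes with a mean brain signal of at least 5, Slc4a5, Ttr and Folr1 were among the 20 with the widest range over the 4 libraries. The same 20 held 4 hindbrain genes and Tmem72, and control 1 was the lowest library for 14 of them. Among the 20 widest genes outside all lists, control 1 was lowest for 11. Pax3, a dorsal neural tube factor, was at 0.983 and 9.30 in controls and at 10.3 and 7.53 in mutants, and Fat2, a protocadherin of cerebellar granule cells, was at 4.10 and 40.9 against 25.4 and 19.97.

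The members were not equally bound to brain. In control libraries 7 of the 10 had their highest mean signal in brain (Folr1, Kl, Clic6, Otx2, Enpp2, Slc4a5 and Kcne2), with tables normalized separately and no test across them. Otx2 had a mean signal of 13.6 ± 5.94 (SD, n = 2) in control brain, 0.133 in spleen, 0.0636 in liver and no read in fibroblasts. Kcne2 was at 2.85 ± 2.33 in brain, and it had no read in the 4 liver libraries and 1 read in the control libraries of each of spleen and fibroblasts. Slc4a5 in brain control 1, at 1.47, was below the higher control of spleen (2.62) and of liver (1.59), so its order rests on brain control 2. Ttr was highest in liver at 2012 ± 621, where hepatocytes make the transthyretin of plasma, against 446 ± 444 in brain. F5 was highest in liver at 371 ± 75.7, and brain at 1.11 ± 0.253 was its lowest tissue, at 0.299% of liver. Aqp1 was highest in spleen at 841 ± 530 and in liver at 330 ± 117, above fibroblasts at 28.2 ± 15.3 (n = 3) and brain at 9.50 ± 3.85; the spleen and liver controls did not overlap, but differed by less than the spleen SD.

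**Figure D5:**
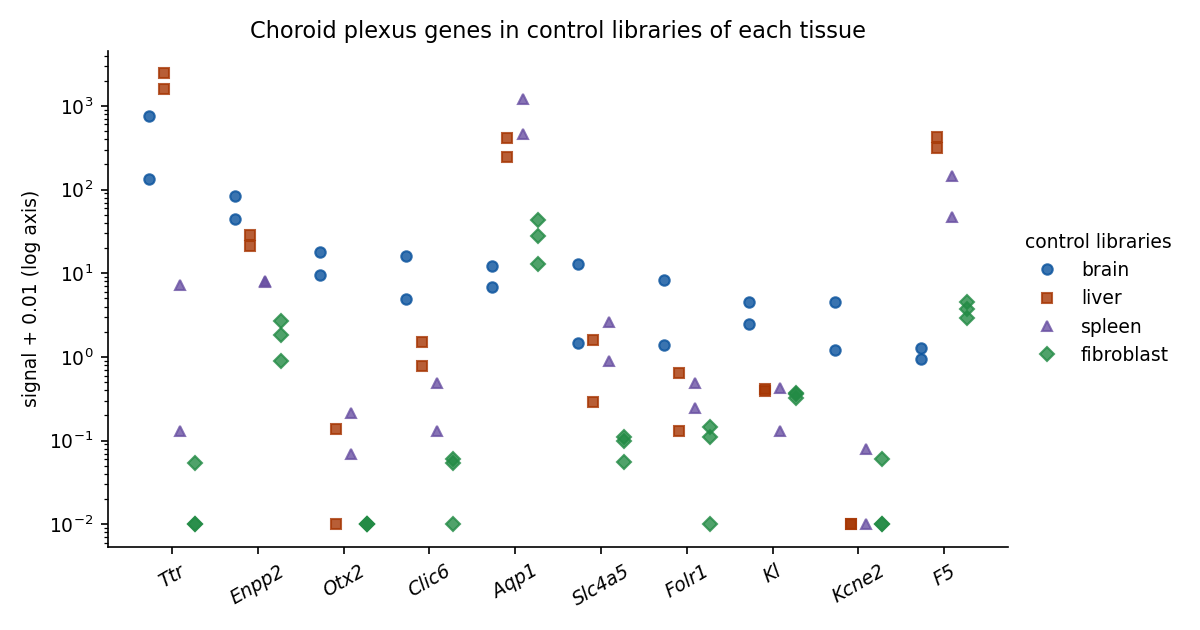
Signal plus 0.01 (log axis) of the 10 genes in the control libraries of brain, liver, spleen and fibroblasts, 1 marker per library, with 0 drawn at 0.01. Ttr and F5 are highest in liver, Aqp1 in spleen, and the other 7 have their highest mean in brain.

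In liver 6 members were tested and 0 were called by limma, where 0% of genes were called. Ttr was at 2451 and 1573 in controls and at 1172 and 779 in mutants, with both mutants lower. How many of all genes had such an order was not counted in liver, spleen or fibroblasts. The fitted change of Ttr was -1.04 ± 0.40 (limma, adjusted p = 0.746). It was the only member in liver with an unadjusted p under 0.05, which 6.67% of all genes had. edgeR's quasi-likelihood test on recovered reads called 0 with 0 at that level (6.89% of all genes) and DESeq2 0 with 1 (6.97%). Among hepatocyte genes, Apoa2 was also lower in both mutants (1709 and 2123 against 1001 and 1373), while Alb overlapped (84131 and 49369 against 80095 and 49071). Tat (334 and 536 against 5327 and 3290) and Hnf4a (503 and 805 against 939 and 1179) were higher in both mutants. Of the 10 hepatocyte genes tested, Ttr and F5 included, 2 changes were above 0, 8 were below and 0 were called. Over all genes tested in liver, 55.9% of changes were above 0. F5 was at 317 and 424 against 286 and 331, and overlapped. Aqp1, which red cells also carry, was at 413 and 248 against 563 and 291. Its high libraries, control 1 and mutant 1, were also the high libraries of red cell genes such as Slc4a1, band 3 of the red cell membrane (3080 and 798 against 3436 and 1306); the part of red cells in Aqp1 was not tested.

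In spleen 5 members were tested and 0 were called by limma, with 0 at an unadjusted p under 0.05 (6.27% of all genes) and 0% of genes called. edgeR called 0 with 1 at an unadjusted p under 0.05 (7.11% of all genes), and so did DESeq2 (9.05%). Aqp1 was at 1216 and 466 in controls and at 390 and 442 in mutants, with both mutants lower, a change of -0.86 ± 0.49 (limma, adjusted p = 0.779), and of -0.17 ± 0.25 without control 1. Red cell genes were also highest in spleen control 1, with Slc4a1 at 7538 and 2466 against 1779 and 1823, and their part in the result was not tested. Enpp2 was at 7.997 and 7.932 against 12.2 and 13.5, with both mutants higher (0.65 ± 0.30, limma, adjusted p = 0.779). F5, also made in megakaryocytes, was at 46.9 and 145 against 75.6 and 84.7. Ttr was at 7.31 and 0.119 against 4.66 and 6.16. Its low library, control 2, was low too for genes of liver and pancreas: Alb was at 192 and 3.40 against 264 and 9.49, and the pancreatic enzyme Ctrb1 was at 549 and 0.417 against 6.61 and 4773. Whether liver or pancreas RNA holds the spleen's Ttr was not tested.

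In fibroblasts 3 members were tested (Aqp1, Enpp2 and F5) and 0 were called by limma, with 1 at an unadjusted p under 0.05 (0.971% of all genes) and 0% of genes called. edgeR called 0 with 1 at an unadjusted p under 0.05 (1.02% of all genes), and DESeq2 called 0 with 0 (1.30%). F5 was at 4.54, 3.69 and 2.89 in controls and at 2.18, 2.72 and 2.19 in mutants, with all mutants lower, a change of -0.54 ± 0.22 (limma, adjusted p = 1.00). Aqp1 spread from 12.95 to 43.55 over the controls and from 14.9 to 41.7 over the mutants. Enpp2 was at 0.890 to 2.65 and at 1.86 to 2.88. The other 7 had table means under 1, and Otx2 had no read in any of the 6 libraries.

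The mutant change in brain was also compared with that in each other tissue, in 1 limma fit over the 18 libraries. Of 6 members compared with liver 0 were called, with 0 at an unadjusted p under 0.05, where 0.0446% of genes were called and 4.44% had an unadjusted p under 0.05. For Ttr the brain change minus the liver change was 2.36 ± 1.25 (log2, SE; limma, adjusted p = 0.999). Of 5 compared with spleen 0 were called, with 0 at an unadjusted p under 0.05 (0.0206% of genes called, 4.86% at the unadjusted level), and the Slc4a5 difference was 1.70 ± 0.95. Of 3 compared with fibroblasts 0 were called and 1, F5, had an unadjusted p under 0.05 (0.0245% of genes called, 0.514% at the unadjusted level), with a difference of 1.42 ± 0.49.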

How the data were processed

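RNA of 18 female libraries in 8 groups was depleted of ribosomal RNA and sequenced with reads of 50 nt, per the labels' protocols. Per the submitters' processing notes, reads were counted with HTSeq 0.6.1 on GRCm38 and normalized with edgeR. For the aligner, the annotation release, the edgeR version and strand in counting: not given in the sources used here. Deposited were 4 tables, 1 per tissue, that hold the authors' scaled counts, called signal here, each table normalized separately. In each column 100% of values were whole multiples of 1 read at a tolerance of 0.05, so whole reads were recovered for the count tests and counting intervals (exact, 95%). Names, coordinates and exonic length came from GENCODE mouse release 21 (GRCm38), which matched 45229 of 46078 identifiers; the other 849 (up to 0.179% of reads per library) were not tested.

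For every tissue, genes whose mean signal in the table reached 1 were fitted as log2(signal + 0.5) with limma 3.58.1 in R 4.3.3 (trend, empirical Bayes, two-sided), mutant against control, with Benjamini-Hochberg adjustment at 0.05 over all genes tested. Changes of low genes are understated on that scale. The scripts were tested on simulated counts. Other pseudocounts and filters, edgeR 4.0.16, DESeq2 1.42.0, a replicate block, leaving out each library and a joint fit were tried. The members and lists were chosen with earlier results of these data known, and the pancreas list was added after spleen values were seen. List medians in brain without control 1 were also added after the data were seen. The genes named are the 10 members, Xist, up to 3 genes of each list with the highest brain signal, and of the 20 genes outside the lists with the widest range over brain libraries a few. Other genes were chosen after their values were seen, and some genes are not reported here.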

Additional observations from a re-analysis of the deposited data

Results flagged for a closer look

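F5 drew attention because both mutants lay above both controls in brain, with a log2 change of 0.88. In fibroblasts all 3 mutants lay below all 3 controls, with a log2 change of -0.54. The order in brain was taken by 13.8% of genes tested there, and the order in fibroblasts was not counted over all genes. The difference between the 2 changes was 1.42 ± 0.49 (log2, SE) by limma over the 18 libraries, with adjusted p = 1.00, and so did not pass. In brain the gene rested on 17 to 49 reads per library.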

How the results depend on the processing

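No choroid plexus gene was called in liver, spleen or fibroblasts, or in the comparisons of brain with each of them, under any alternative run. Leaving out 1 library at a time gave 0 to 5 of the 10 called in brain, the 5 without control 2, and every other alternative gave 0. Over all genes, leaving out 1 library gave 6 to 112 calls in brain (main value 4) and 0 to 173 in spleen (main value 0). Testing without a filter on low values gave 13 in brain, 11 in liver and 22 in spleen. DESeq2 gave 41, 211, 182 and, in fibroblasts, 3, and the joint fit over 18 libraries gave 7, 278, 174 and 1. The cause was not tested. Replicate numbers pair no samples by the labels (correlations of same-numbered deviations brain 0.08, liver 0.58, spleen -0.03, fibroblasts -0.08 to 0.43). With the number as a replicate block, the calls were 4 (brain), 60 (liver), 356 (spleen) and 0 (fibroblasts) over all genes, and 0 of the choroid plexus genes.

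Signs of uncalled changes turned in 23 fits. Leaving out 1 library, the change in brain ranged from -0.018 to 2.20 for Folr1, -0.14 to 0.63 for Kl, -0.031 to 0.86 for Otx2 and -0.17 to 0.72 for Enpp2, each lowest without control 1 and highest without control 2. Liver values ranged from -0.85 to 0.48 for Clic6, -0.14 to 0.81 for Aqp1, -1.42 to 0.42 for Enpp2 and -0.37 to 1.05 for Slc4a5. Spleen values ranged from -0.41 to 3.24 for Ttr, -0.62 to 0.54 for Slc4a5 and -0.86 to 0.76 for F5. Fibroblast values ranged from -0.44 to 0.42 for Aqp1, which was -0.012 by edgeR and -0.018 by DESeq2, and from -0.021 to 0.57 for Enpp2. With a pseudocount of 1, brain minus spleen became 0.26 for Ttr and brain minus fibroblast 0.034 for Enpp2. Control levels in brain moved by less than their SD without the TMM factor. From 150 bases before the start site, TATAAA was found in 1 member and TAATCC in 0. Control 1 was the lowest brain library for all 10 genes, so leaving it out could only lower their changes. Without it, the brain change of all but F5 was 0.34 or less. F5 rested on 17 to 49 reads per brain library.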
